A study of Mus musculus with 3 samples.

Results

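The miR-30 family was examined in exosomes, small vesicles shed by cells, from bone-marrow-derived macrophages of wild type C57BL/6 mice. Its members were taken by name, as the mature strands of miR-30a to miR-30e without a gene copy number in the name. There were 9 of them among the 1915 mature mouse microRNAs (miRNAs) listed for each library. From the 5′ side of their hairpins (5p) these were mmu-miR-30a-5p, mmu-miR-30b-5p, mmu-miR-30c-5p, mmu-miR-30d-5p and mmu-miR-30e-5p, 5 in all. From the 3′ side (3p) they were mmu-miR-30a-3p, mmu-miR-30b-3p, mmu-miR-30d-3p and mmu-miR-30e-3p, 4 in all. The species prefix mmu is left off from here on. The study had 1 group of 3 small RNA libraries, replicates 1 to 3, called libraries 1, 2 and 3 here. Marrow cells of adult mice received M-CSF, the cytokine that turns marrow progenitors into macrophages, during 24 h. They were then kept on serum from which exosomes had been removed, and vesicles were spun out of the culture fluid by ultracentrifugation after 72 h. No second group and no library of the parent cells were analysed here, so all comparisons are between strands or between libraries. Separate cultures or animals are not stated for the libraries, so the spread between them may be technical.

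MiRNAs are cut from a hairpin precursor that yields a strand from each side, and usually 1 of the strands is loaded into the silencing complex and kept. The bases near the 5′ end of the loaded strand, the seed, pair with target mRNAs. The 5p strands of miR-30 share a seed and are known to repress Becn1, an autophagy gene, Dll4, a Notch ligand that macrophages also carry, and Smad1 and Runx2, which promote bone formation. The genes lie in pairs: miR-30a with miR-30c-2, miR-30e with miR-30c-1, and miR-30b with miR-30d.

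Sequences for 5 of the 9 members were matched in RefSeq (GRCm38.p6, the mm10 build), namely miR-30a-5p, miR-30a-3p, miR-30c-5p, miR-30e-5p and miR-30e-3p. They are shown because the near-identity of some members bears on how their counts can be read. Each is written 5′ to 3′ with the seed, bases 2 to 8, in capitals.
miR-30a-5p: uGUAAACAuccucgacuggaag
miR-30e-5p: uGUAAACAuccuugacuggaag
miR-30c-5p: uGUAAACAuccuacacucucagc
miR-30a-3p: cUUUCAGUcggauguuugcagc
miR-30e-3p: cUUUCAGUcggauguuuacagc
Counted from 1 at the 5′ end, miR-30a-5p and miR-30e-5p differed at a single base (C13U, the miR-30a base first). MiR-30a-3p and miR-30e-3p also differed at a single base (G18A). MiR-30a-5p and miR-30c-5p shared their first 12 bases and then differed at 5 positions over the length of the shorter strand (C13A, G14C, G18C, G19U and A20C). A read with a sequencing error at the distinguishing base could be counted under the wrong member of the near-identical pairs. No member had the same counts as another miRNA in the table.

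The hairpins of the matched members are shown with both mature arms in capitals. The arms of Mir30a and of Mir30e are compared with each other below. So are those of miR-30b and miR-30d, whose hairpins were not matched and are not shown.
Mir30a: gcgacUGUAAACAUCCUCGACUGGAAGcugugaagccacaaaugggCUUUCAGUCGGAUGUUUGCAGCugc
Mir30e: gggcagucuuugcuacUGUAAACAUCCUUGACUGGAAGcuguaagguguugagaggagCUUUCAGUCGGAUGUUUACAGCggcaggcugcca
Mir30c-1: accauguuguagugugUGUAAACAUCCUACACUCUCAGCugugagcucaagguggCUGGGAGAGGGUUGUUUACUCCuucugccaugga
Mir30c-2: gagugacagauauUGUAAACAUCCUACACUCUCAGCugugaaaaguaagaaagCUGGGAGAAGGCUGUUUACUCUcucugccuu
The Mir30a hairpin lies at chr1:23272269-23272339 and Mir30c-2 at chr1:23291701-23291784, both on the plus strand. In the GENCODE annotation of the same build Mir30c-2 overlaps an exon of the long noncoding gene Gm27028, and no gene other than a miRNA gene overlaps Mir30a. Mir30e at chr4:120772606-120772697 and Mir30c-1 at chr4:120769534-120769622 lie on the minus strand in introns of Nfyc, which encodes a subunit of the transcription factor NF-Y. MiR-30c-5p has the same sequence in both of its hairpins, so its counts cannot be split between the 2 genes.

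The libraries held 3008995, 2489984 and 3208617 counts assigned to miRNAs. Levels are counts per 1000000 of these (CPM), so that a miRNA with 0 counts could still reach 0.997, 1.20 or 0.935 CPM (3 counts) in libraries 1, 2 and 3. Wilson intervals (95%) and such floors cover counting error only. The 7 macrophage and blood-lineage markers checked, among them miR-142a-3p, miR-223-3p and miR-155-5p, had counts in every library and summed to 7.13%, 34.5% and 30.02% of counts. Library 1 was thus lower in this sum, but the 7 markers did not move together. On the log2(CPM + 1) scale, library 1 over libraries 2 and 3 gave -4.96 and -4.22 for miR-142a-3p. It gave -4.98 and -3.45 for miR-155-5p, -3.03 and -2.81 for miR-21a-5p, and -1.48 and -0.41 for miR-142a-5p. For miR-223-3p the ratios were -0.55 and 0.10, for miR-146a-5p -0.07 and -0.13, and for miR-342-3p 0.48 and 1.17. Library 1 was higher in the sum of 3 erythroid markers, at 89.7, 27.7 and 15.6 CPM. Library 1 also stood lowest in the sum of 4 epithelial markers (80.4, 455 and 283 CPM), which did not move together either. The same log2 ratios were -2.91 and -2.01 for miR-200b-3p and -2.75 and -2.85 for miR-200c-3p. They were -0.44 and -0.19 for miR-200a-3p, and -2.25 and 1.97 for miR-205-5p. The sum of 4 stromal markers was highest in library 1 (247, 141 and 135 CPM). Among these, miR-199a-3p gave log2 ratios of 0.83 and 0.96 and miR-143-3p 0.54 and 0.09. Medians over all miRNAs with at least 30 counts in sum were 0.72 and 0.96. Library 1 was lowest too in miR-122-5p, listed as a marker of liver or serum (322, 548 and 1500 CPM). The endothelial marker was at 21.6, 43.8 and 23.7 CPM, 2 neuronal ones summed to 5.65, 10.8 and 14.0 CPM, with miR-124-3p at 0 throughout, and 3 muscle markers to 2.66, 0 and 2.18 CPM. The lymphoid miR-150-5p was at 0, 0 and 0.312 CPM. The part of these sources in the library differences given next was not tested, and in a pellet fewer vesicles of a kind and less RNA per vesicle cannot be told apart.

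The family made up 8.50% of miRNA counts in library 1 (Wilson interval 8.47 to 8.53), 3.67% in library 2 (3.64 to 3.69) and 2.41% in library 3 (2.40 to 2.43). The mean was 4.86% ± 3.21 (SD, n = 3), and 3.04% without library 1. Nearly all of this came from the 5p strands, which took 4.76% ± 3.22, against 0.09995% ± 0.0164 for the 3p strands (SD, n = 3 each). The 3p sum did not share the drop of the 5p sum across libraries: it stood at 0.0951%, 0.0865% and 0.118% in libraries 1, 2 and 3.

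MiR-30d-5p was the most abundant member. It was counted at 53194, 16606 and 13018 CPM in libraries 1, 2 and 3, a mean of 27606 ± 22232 CPM (SD, n = 3). Library 1 stood above both others and decided that mean, which was 14812 CPM without it. Among all miRNAs miR-30d-5p ranked 5th, 12th and 14th.

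MiR-30a-5p, the strand best known for repressing Becn1, came second at 26474, 14718 and 6900 CPM and averaged 16031 ± 9853 CPM (SD, n = 3). Library 1 was again highest and library 3 lowest, and the rank was 14, 14 and 22. MiR-30e-5p, which differs from it by the single base given above, was at 3661, 1829 and 732 CPM, which averaged 2074 ± 1480 CPM (SD, n = 3), or 1281 CPM when library 1 was left out. It followed the same order of libraries at a level several-fold lower. MiR-30a-5p exceeded miR-30e-5p by 7.23, 8.05 and 9.43 times in libraries 1, 2 and 3.

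The other 5p members were lowest in library 1. MiR-30c-5p was at 438, 1899 and 1235 CPM and averaged 1191 ± 732 CPM (SD, n = 3), with library 1 lowest and library 2 highest. MiR-30b-5p was at 260, 747 and 1051 CPM and averaged 686 ± 399 CPM (SD, n = 3), with library 1 lowest and library 3 highest. MiR-30c-5p ranked 91st in library 1 and 45th and 50th in libraries 2 and 3, and miR-30b-5p ranked 102nd, 69th and 55th.

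**Figure D1:**
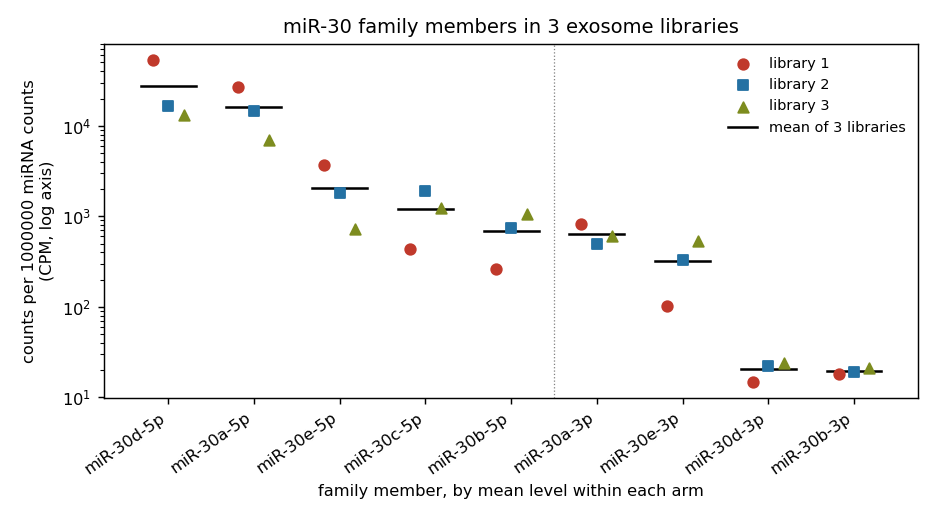
Level of each family member in CPM on a log axis, 1 point per library and a line at the mean of the 3 libraries, with the 5p strands left of the dotted line and the 3p strands right of it. MiR-30d-5p, miR-30a-5p and miR-30e-5p are highest in library 1, while miR-30c-5p and miR-30b-5p are lowest there.

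Among the 3p strands, which are mostly discarded as passengers, miR-30a-3p led with 817, 492 and 601 CPM and averaged 637 ± 166 CPM (SD, n = 3). Its libraries differed by no more than 1.66 times. MiR-30e-3p was at 101, 331 and 536 CPM and averaged 323 ± 218 CPM (SD, n = 3), so that it was lowest in library 1, where its partner miR-30e-5p was highest. MiR-30d-3p was at 15.0, 22.1 and 24.0 CPM from 45, 55 and 77 counts. MiR-30b-3p was at 18.3, 19.3 and 21.2 CPM from 55, 48 and 68 counts, with a coefficient of variation of 7.56%, the lowest of the 9 members when libraries are scaled to their miRNA totals. With TMM factors and DESeq2 size factors its log2 ratio of library 1 to library 3 was -1.02 and -0.83, in place of -0.20, and miR-30a-3p varied less.

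The order of the means was miR-30d-5p, miR-30a-5p, miR-30e-5p, miR-30c-5p, miR-30b-5p, miR-30a-3p, miR-30e-3p, miR-30d-3p and miR-30b-3p. The strands are of nearly equal length, so CPM is compared directly, although adapter ligation can favour some ends over others. The ranges of neighbours over the 3 libraries overlapped at 6 of the 8 steps. The exceptions were the steps between miR-30a-5p and miR-30e-5p and between miR-30e-3p and miR-30d-3p. MiR-30d-5p was above miR-30a-5p in 3 of 3 libraries, but their means differed by 11575 CPM, less than the larger SD of 22232 CPM. MiR-30e-5p was above miR-30c-5p in 1 of 3 libraries only, which was library 1.

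A chi-square test of each member's counts against the library totals asked whether the libraries differed beyond counting error. P-values were adjusted by Benjamini and Hochberg's method over the 353 miRNAs that reached 30 counts in sum, and they speak of these 3 libraries rather than of conditions. All 9 members were tested and 8 passed an adjusted p of 0.05, as did 90.1% of all miRNAs tested, so that passing was the rule rather than a property of the family. The exception was miR-30b-3p, at an adjusted p = 0.715. MiR-30d-3p passed narrowly (adjusted p = 0.0378 in the chi-square test, from 1.60-fold between its lowest and highest library). For the other 7 the largest adjusted p was 4.62e-52, that of miR-30a-3p.

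Of the 8 members that passed, 4 were highest in library 1, namely miR-30a-5p, miR-30d-5p, miR-30e-5p and miR-30a-3p. This pattern was found for 56.7% of all miRNAs tested. The other 4, miR-30b-5p, miR-30c-5p, miR-30e-3p and miR-30d-3p, were lowest in library 1, as were 24.6% of all miRNAs tested. On the log2(CPM + 1) scale the ratio of library 1 to library 2 had a median of -0.07 over the 9 members, against 0.72 over all tested miRNAs. For library 1 over library 3 the medians were -0.20 for the members and 0.96 for all tested miRNAs.

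Because the ratios of all miRNAs were centred above 0, each member was also set against that centre. MiR-30d-5p stood above the median of all tested miRNAs by 0.96 for library 1 over 2 and by 1.07 for library 1 over 3, on the log2 scale. MiR-30e-5p stood above it by 0.28 and 1.37 and miR-30a-5p by 0.13 and 0.98. MiR-30a-3p was 0.01 above it in the first ratio and at -0.51 from it in the second. With edgeR's TMM factors the centre moved to 0.13 and 0.11, and with DESeq2 size factors to 0.27 and 0.30. MiR-30a-3p was then no longer highest in library 1: its log2 ratio of library 1 to library 3 was -0.42 with TMM factors and -0.22 with DESeq2 size factors, in place of 0.44. The directions of the 5 5p members and of miR-30e-3p for both ratios were the same under both scalings. All 9 members passed the chi-square test under either scaling, beside 89.5% of all tested miRNAs with TMM factors and 89.5% with DESeq2 size factors. Under both scalings 3 members were highest in library 1 and 5 lowest. All tested miRNAs gave 39.7% and 36.5% for these patterns with TMM factors, and 45.3% and 31.4% with DESeq2 size factors.

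MiR-30b-5p and miR-30c-5p stood far from the centre in the other direction. Library 1 over library 2 gave log2 ratios of -1.52 for miR-30b-5p and -2.11 for miR-30c-5p, which is -2.24 and -2.83 from the median of all tested miRNAs. For library 1 over library 3 they were -2.01 and -1.49, at -2.97 and -2.45 from that median. MiR-30e-3p had log2 ratios of -1.70 for library 1 over 2 and -2.40 for library 1 over 3, at -2.42 and -3.35 from the medians. MiR-30b-5p and miR-30d-5p, whose genes are neighbours, thus took opposite directions, as did miR-30e-5p and miR-30e-3p, which come from a single hairpin.

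**Figure D2:**
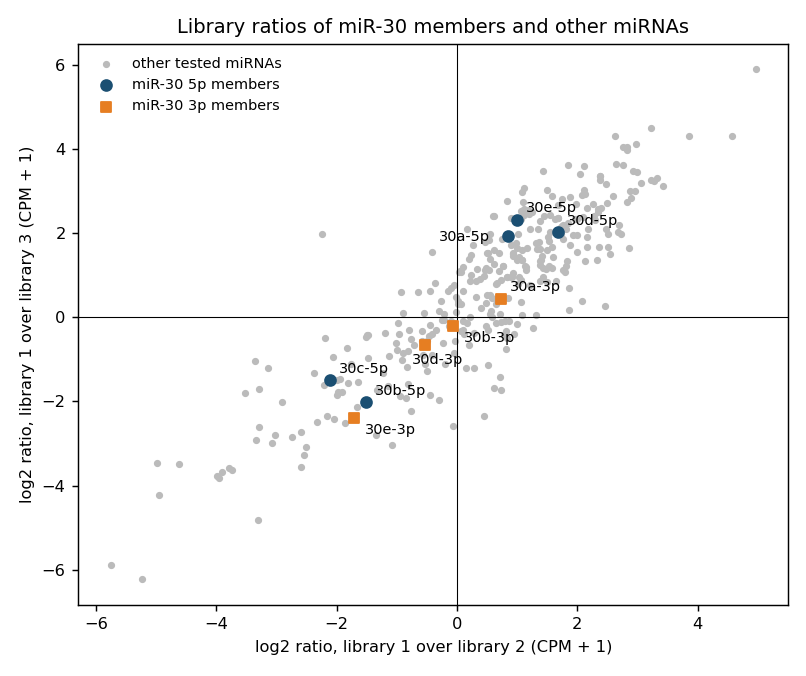
Log2 ratio of library 1 over library 2 (x axis) and over library 3 (y axis), from CPM + 1, for the 353 tested miRNAs, with the miR-30 5p members as blue circles, the 3p members as orange squares and the others in grey. MiR-30a-5p, miR-30d-5p and miR-30e-5p lie in the upper right, while miR-30b-5p, miR-30c-5p and miR-30e-3p lie in the lower left with ratios between -2.40 and -1.49.

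The members also differed between libraries 2 and 3. Without library 1 the chi-square test passed 7 of the 9 members, and 61.5% of all miRNAs tested. MiR-30b-3p and miR-30d-3p did not pass, at adjusted p = 0.661 and 0.679. MiR-30e-5p, miR-30a-5p, miR-30c-5p and miR-30d-5p were higher in library 2 than in library 3, by 1.32, 1.09, 0.62 and 0.35 on the log2 scale, a direction seen for 39.6% of tested miRNAs. MiR-30e-3p, miR-30b-5p and miR-30a-3p were lower in library 2, with log2 ratios to library 3 of -0.69, -0.49 and -0.29, a direction seen for 21.9%. Without library 2, 8 members passed, beside 86.9% of tested miRNAs, with 4 higher in library 1 than in library 3 (59.9% of tested miRNAs) and 4 lower (26.9%). Without library 3, 7 members passed, beside 87.5%, with 4 higher in library 1 than in library 2 (63.9%) and 3 lower (23.5%).

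The make-up of the family within a library does not depend on how libraries are scaled. MiR-30d-5p held 62.6%, 45.3% and 53.97% of the family's counts in libraries 1, 2 and 3, a mean of 53.95% ± 8.65 (SD, n = 3). MiR-30a-5p held 31.2%, 40.1% and 28.6%, so that this pair made up most of the family in every library. MiR-30e-5p held 4.31%, 4.99% and 3.03%.

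MiR-30c-5p held 0.515% of the family in library 1 (Wilson interval 0.488 to 0.544), 5.18% in library 2 (5.04 to 5.33) and 5.12% in library 3 (4.97 to 5.28). MiR-30b-5p held 0.306% (0.286 to 0.328), 2.04% (1.95 to 2.13) and 4.36% (4.22 to 4.503). Both were thus scarce in library 1 and a visible minority in the others. The share of miR-30e-3p had the same order of libraries as that of miR-30b-5p, at 0.119%, 0.904% and 2.22%.

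**Figure D3:**
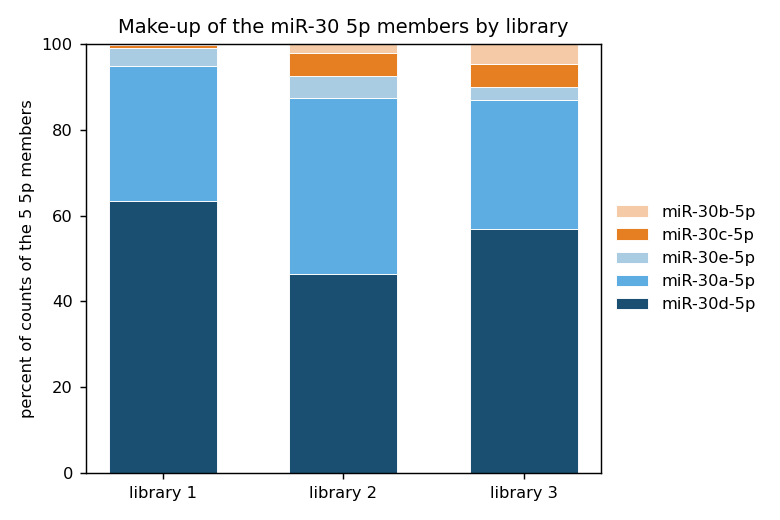
Share of each 5p member in the summed counts of the 5 5p members, in percent, as 1 stacked bar per library. MiR-30d-5p and miR-30a-5p fill most of each bar, and miR-30c-5p with miR-30b-5p is a thin band in library 1 and a wider one in libraries 2 and 3.

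Ratios between members gave the same picture with counting error attached. The sum of miR-30a-5p, miR-30d-5p and miR-30e-5p exceeded that of miR-30b-5p and miR-30c-5p by 119 times in library 1 (95% interval 114 to 125), 12.5 times in library 2 (12.2 to 12.8) and 9.03 times in library 3 (8.82 to 9.25). This grouping was chosen after the values were seen and carries no test. Within the first group the ratio of miR-30a-5p to miR-30d-5p stood at 0.498, 0.886 and 0.530, and miR-30d-5p to miR-30e-5p at 14.5, 9.08 and 17.8. Within the second, miR-30b-5p to miR-30c-5p was 0.594, 0.393 and 0.851. Of the 10 pairs of 5p members, the 4 within these groups varied between 1.30-fold and 2.16-fold across libraries, and the 6 between the groups from 10.8-fold to 20.2-fold. This separation rested on library 1: in a check added after the data were seen, between libraries 2 and 3 alone the 4 pairs within the groups varied from 1.17-fold to 2.16-fold and the 6 between them from 1.21-fold to 3.52-fold, so that the ranges overlapped. The widest was miR-30b-5p to miR-30e-5p, at 0.0711, 0.408 and 1.44.

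The counts of both arms in the vesicles were compared for the 4 hairpins with both arms named alike. Without a library of the parent cells, these counts do not show which arm was kept in the cell. The quasi-likelihood test of edgeR for 5p against 3p counts was run over 157 precursors with library as a term. All 4 hairpins were called with the 5p arm higher. That was so for 41.4% of all precursors tested, and 38.9% were called the other way.

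MiR-30d was the most one-sided. Its 5p arm had 160059, 41348 and 41769 counts in libraries 1, 2 and 3, against 45, 55 and 77 counts for its 3p arm. The log2 ratio of 5p to 3p was 10.10 ± 1.05 (SE, adjusted p = 3.05e-18 in edgeR's test), and 18 of the 157 precursors had a larger one. The 3p counts are small, so the ratio of 3557 in library 1 carries a 95% interval of 2658 to 4759.

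MiR-30b had 783, 1859 and 3372 counts on the 5p arm, against 55, 48 and 68 on the 3p arm. Its log2 ratio was 4.92 ± 1.03 (SE, adjusted p = 5.55e-06 in edgeR's test). The 5p share of the hairpin was 93.4% in library 1 (Wilson interval 91.6 to 94.9), 97.5% in library 2 (96.7 to 98.1) and 98.0% in library 3 (97.5 to 98.4). It was thus lowest in library 1, in contrast to the other hairpins.

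MiR-30a had 79660, 36647 and 22140 counts on the 5p arm, against 2459, 1225 and 1929 on the 3p arm, with a log2 ratio of 4.49 ± 0.84 (SE, adjusted p = 4.70e-07 in edgeR's test). The 5p arm exceeded the 3p arm by 32.4, 29.9 and 11.5 times. Libraries 1 and 2 were close and library 3 was lower.

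MiR-30e had the lowest fitted ratio of the 4 and the widest spread between libraries, although in library 1 its ratio of 36.2 was above those of miR-30a (32.4) and miR-30b (14.2). Its 5p arm had 11016, 4555 and 2348 counts, against 304, 825 and 1720 for its 3p arm. The 5p share was 97.3% in library 1 (Wilson interval 97.0 to 97.6), 84.7% in library 2 (83.7 to 85.6) and 57.7% in library 3 (56.2 to 59.2), a mean of 79.9% ± 20.2 (SD, n = 3). The log2 ratio was 2.65 ± 0.99 (SE, adjusted p = 0.0101 in edgeR's test). The call did not hold without library 1 (log2 ratio 1.46, adjusted p = 0.0738 by edgeR) or without library 2 (2.81, adjusted p = 0.130 by edgeR).

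The log2 ratio of the arms spanned 4.73 between libraries for miR-30e, 2.71 for miR-30d, 1.80 for miR-30b and 1.497 for miR-30a. Over the 104 tested precursors with counts on both arms in every library the median span was 2.28. A wider span than that of miR-30e was found for 6 of the 104, and wider ones than those of miR-30d, miR-30b and miR-30a for 42, 67 and 75. MiR-30e-3p thus made up 10.6%, 38.3% and 45.3% of the 3p counts of the family, while miR-30a-3p, a single base different, held 85.9%, 56.9% and 50.8%.

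**Figure D4:**
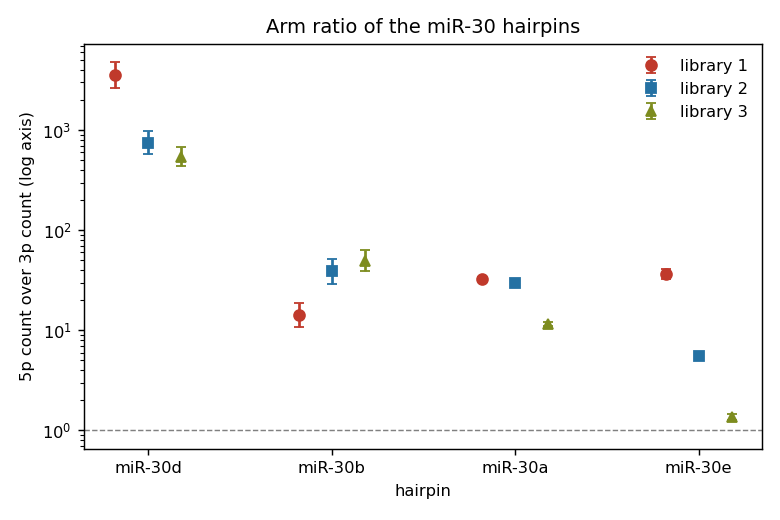
Count of the 5p arm over count of the 3p arm for the 4 hairpins, on a log axis, 1 point per library, with 95% intervals for counting error and a dashed line at equal counts. The ratios of miR-30e fall at 36.2, 5.52 and 1.37 in libraries 1, 2 and 3, while those of miR-30b are lowest in library 1.

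Strands outside the 9 members were minor. MiR-30c-2-3p had 212, 132 and 194 counts and miR-30c-1-3p 19, 10 and 13, so that miR-30c-2-3p exceeded miR-30c-1-3p by 11.2, 13.2 and 14.9 times. The low counts of miR-30c-1-3p leave 95% intervals of 7.01 to 17.8, 7.01 to 24.8 and 8.57 to 26.0 for these ratios, so changes within them were not detectable at this depth. MiR-30c-5p exceeded the sum of both by 5.71, 33.3 and 19.1 times. MiR-30f had 1, 0 and 0 counts. MiR-384-5p, the only other matched miRNA in the table with the GUAAACA seed, had 0 counts in every library.

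The miRNAs outside the family that were most like a 5p member across the 3 libraries were found among the 127 with a mean of at least 100 CPM, by the root mean square (RMS) difference of log2(CPM + 1) after centring each on its own mean. With 3 libraries such likeness is a description only. Nearest to miR-30e-5p were miR-20a-5p (RMS 0.023), miR-674-5p (0.053) and miR-152-3p (0.084). Nearest to miR-30a-5p were miR-185-5p (0.045), miR-140-5p (0.068) and miR-1839-5p (0.12), and nearest to miR-30d-5p were miR-361-5p (0.065), miR-24-3p (0.14) and miR-99a-5p (0.15). MiR-30c-5p was nearest to miR-98-5p (0.17), miR-26b-5p (0.17) and let-7c-5p (0.23), and miR-30b-5p to miR-7a-5p (0.21), miR-7b-5p (0.23) and let-7c-5p (0.26). Within the family miR-30a-5p and miR-30e-5p were 0.16 apart and miR-30b-5p and miR-30c-5p 0.45, while miR-30b-5p and miR-30d-5p were 1.74 apart.

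The summed miR-30 family had log2 ratios of library 1 to libraries 2 and 3 of 1.21 and 1.82. The medians of all tested miRNAs for these ratios were 0.72 and 0.96. The 9 let-7 strands, with miR-98-5p counted among them, summed to ratios of -1.32 and -1.45, and the pair miR-26a-5p and miR-26b-5p to -2.11 and -2.04. With TMM factors the ratios were 0.60 and 0.95 for the miR-30 sum, -1.93 and -2.31 for let-7, and -2.72 and -2.90 for miR-26. These sums were not tested against each other. MiR-30b-5p and miR-30c-5p shared the sign of the let-7 and miR-26 sums, and not that of the sum of their own family. Most counts of that sum came from miR-30d-5p and miR-30a-5p. The median of the 9 members was below 0 in both ratios, at -0.07 and -0.20.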

How the data were processed

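Small RNA libraries were made from exosome pellets by 3′ and 5′ adapter ligation, PCR and gel selection and read as 50 bases single-end, per the labels' protocols. No molecular identifiers are mentioned, so counts are of PCR products. The submitters' processing notes name bcl2fastq, BWA and mm10. How reads matching several miRNAs were handled is not stated. The authors deposited a count per miRNA, used for all tests, and a normalized value in RPM (deposited by the authors), whose denominator of 14047692, 13995845 and 14002577 in libraries 1, 2 and 3 exceeds the miRNA total.

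CPM was computed over each library's summed miRNA counts. Chi-square tests used scipy 1.17.1, and the arm test used edgeR 4.0.16 on 157 of 749 precursors (summed count of at least 60) and library as a block, since both arms come from the same RNA, with DESeq2 1.42.0 as an alternative. Standard errors of the arm ratios were derived from the F statistic. Both tests were tried on simulated data. For the chi-square test the simulated counts held only counting error and the changes put in. They therefore do not show how the test behaves at the spread seen between these libraries. For the arm test the simulated counts had the same spread for all precursors, which was not taken from these libraries. Its behaviour at their own spread was therefore not shown either. All 9 members are named. Related strands and, for each 5p member, the 3 nearest miRNAs were named by rule. The members, lists and rules were chosen with earlier results of these data known.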

Additional observations from a re-analysis of the deposited data

How the results depend on the processing

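The number of miRNAs that differed among libraries was 318, and 177 to 284 when 1 library was left out, the lowest without library 1, where 61.5% of the 288 tested were called, against 90.1% of 353 with all libraries; the cause was not tested. The number of precursors called in the arm test was 126, the same without the replicate block, and 99 to 122 with a library left out. With a library left out, the filter of 60 summed counts was applied to the remaining libraries, so fewer precursors could be tested. The number called was 129 with DESeq2, and 168 with no filter on low counts, where more precursors were tested. The log2 ratio of miR-30e ranged from 1.46 to 3.82 with a library left out. The family's share was 1.01% by the authors' RPM, whose denominator is larger, and 3.04% to 6.08% with a library left out. The log2 ratio of library 1 to library 3 of miR-30a-3p reversed to -0.42 with TMM factors and -0.22 with DESeq2 size factors. With the authors' RPM the ratio of library 1 to library 2 of miR-30b-3p reversed to 0.15 and that of library 2 to library 3 of miR-30d-5p to -0.0139. MiR-30b-3p, not called with library totals, was called with TMM factors and DESeq2 size factors (adjusted p = 0.000188 and 0.00375 in the chi-square test). Without library 3, miR-30d-3p was not called (adjusted p = 0.0575). Low 3p counts of miR-30b and miR-30d limit the precision of their arm ratios.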
